A study of Homo sapiens with 28 samples.

Results

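NANOG and its neighbours on the short arm of chromosome 12 (12p13.31) were followed across human embryonal carcinoma (EC) and embryonic stem (ES) cell lines. The 10 genes were taken as a given list, NANOG, GDF3, DPPA3, APOBEC1, SLC2A14, SLC2A3, FOXJ2, C3AR1, CLEC4D and CLEC4E, out of 21360 gene symbols to which the array's annotation assigns a feature. Their symbols stand on 11 gene-level clusters and 135 exon-level probesets. The list was drawn up with the difference between EC and ES cells in view, so the levels of these genes in EC against ES cells are given as a description, without a test.

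EC cells are the malignant stem cells of germ cell tumours, and ES cells are their counterpart derived from the early embryo. NANOG is a homeodomain transcription factor that helps hold cells in the pluripotent state, and it acts together with the factors OCT4 and SOX2. GDF3, a ligand of the TGF-beta family, and DPPA3 (also called STELLA), a maternal and germ cell factor, lie beside NANOG and are expressed in early embryonic and germ cells. Gain of the short arm of chromosome 12 is a recurrent feature of testicular germ cell tumours. Copy number was not measured on these arrays.

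The study profiled RNA from lines sorted for the surface antigen SSEA3 on Affymetrix Human Exon 1.0 ST arrays, and 14 arrays were used at both gene and exon level. The 6 ES lines H14, Shef5, Shef 6, Shef3, H9 and Shef7 grew on inactivated mouse embryo fibroblast feeders in knock-out DMEM supplemented with FGF and a serum substitute. On plastic, in DMEM rich in glucose with calf serum (FCS), grew 5 EC lines: TERA1, NTERA2, 833KE, 2102Ep and NCCIT. Of these, 3 (NTERA2, 2102Ep and 833KE) were also grown on the feeders in the ES medium, so substrate and medium cannot be told apart, either between those cultures or between EC cells on plastic and ES cells. Every array of a group holds a different line, so p-values of EC against ES lines measure the spread between lines. Feeders against plastic was fitted with the line as a block, and its p-values measure the spread of the change within lines.

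All values are log2 levels, and a difference of 1 is a doubling. The array medians ran from 6.19 to 6.39 at gene level, and the 25th percentile of the cluster means, below which a cluster is called dim here, was 4.58. The numbers in the array names of the labels, called codes here, fall into 4 lower (earlier) and 10 higher (later) ones; whether they follow the order of processing is not stated. H14 and Shef5 among the ES lines and the feeder cultures of NTERA2 and 2102Ep carry earlier codes, while all EC arrays on plastic carry later codes. Of 12 markers of pluripotent cells none was dim, and their mean level lay at 9.71 to 10.55 in ES lines, 9.86 to 10.73 in EC lines on plastic and 9.71 to 10.42 in EC lines on feeders. Of 12 myeloid markers 8 were dim, with a mean level of 3.76 to 4.01 in ES lines, 3.77 to 3.98 in EC lines on plastic and 3.83 to 4.02 on feeders. Fibroblast markers, 12 in number and 3 of them dim, had a mean level of 5.63 to 6.78 in ES lines, 5.12 to 5.76 in EC lines on plastic and 5.79 to 5.97 on feeders.

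The genes fell into 3 kinds. By the readouts used here, NANOG, GDF3, DPPA3 and CLEC4D lay higher in every EC line on plastic than in any ES line. Some single probesets of GDF3 and CLEC4D overlapped. SLC2A14 and FOXJ2 were higher on average by less than 1 and overlapped with ES lines on plastic, and SLC2A3 differed by 0.24. APOBEC1, C3AR1 and CLEC4E were dim in all groups. Against ES lines, 4 of the 10 readouts did not overlap and were higher in EC lines on plastic, where 2.85% of all clusters and 2.34% of all probesets did so. On feeders, 4 of 10 did so as well (GDF3, SLC2A14, FOXJ2 and CLEC4D), where 5.78% of clusters and 4.14% of probesets did. The list was chosen for this contrast, so nothing is read from these shares. In RNA of many cells, here those sorted for SSEA3, fewer cells that express a gene and less RNA per cell cannot be told apart. Both comparisons use the same ES arrays, and the feeder cultures are of lines that are also on plastic.

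**Figure D1:**
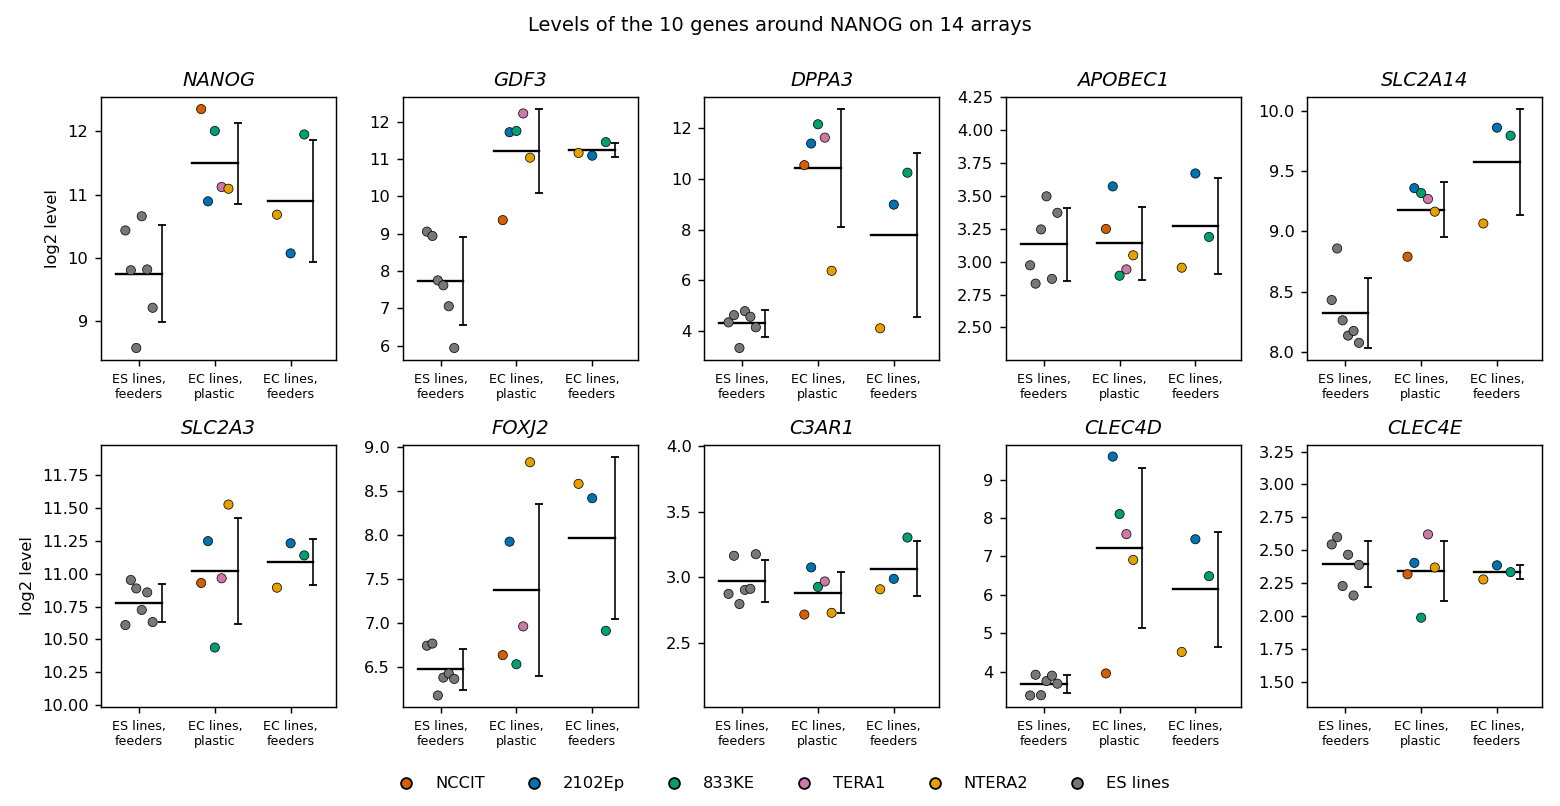
Log2 level (vertical axis, a separate range for each gene) of the 10 genes by group, with 6 ES lines, 5 EC lines on plastic and 3 EC lines on feeders. Each point is 1 array, horizontal lines are group means and bars are 1 SD; DPPA3 and CLEC4D spread most among EC lines, from 6.37 to 12.15 and from 3.96 to 9.60 on plastic.

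The promoters of NANOG, GDF3 and DPPA3 are shown because these close neighbours are known as stem or germ cell genes and all were higher in EC lines on plastic. The sequences are the 250 bases before each gene's start, from RefSeq (GRCh38.p14), which held 8 of the 10 genes. Capitals mark matches on either strand to ATGCAAA, the core of the octamer bound by POU factors such as OCT4, and to CATTGT, a core bound by SOX factors. The windows are chr12:7789152-7789401 on the plus strand for NANOG, chr12:7695776-7696025 on the minus strand for GDF3 and chr12:7711183-7711432 on the plus strand for DPPA3.
NANOG: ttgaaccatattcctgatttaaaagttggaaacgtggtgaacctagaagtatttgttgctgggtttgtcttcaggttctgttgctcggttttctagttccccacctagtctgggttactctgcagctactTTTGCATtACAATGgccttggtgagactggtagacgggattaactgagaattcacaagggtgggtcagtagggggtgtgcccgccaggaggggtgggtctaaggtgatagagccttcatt
GDF3: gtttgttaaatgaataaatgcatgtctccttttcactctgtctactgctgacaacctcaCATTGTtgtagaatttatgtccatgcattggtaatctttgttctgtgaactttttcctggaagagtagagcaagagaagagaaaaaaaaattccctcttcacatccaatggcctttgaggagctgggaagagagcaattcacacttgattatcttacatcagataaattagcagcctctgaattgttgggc
DPPA3: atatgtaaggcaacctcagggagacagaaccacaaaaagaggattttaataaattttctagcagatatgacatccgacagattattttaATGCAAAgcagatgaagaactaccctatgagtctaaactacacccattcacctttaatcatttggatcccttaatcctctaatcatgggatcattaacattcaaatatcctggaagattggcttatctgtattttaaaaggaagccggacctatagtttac
The NANOG window holds both motifs, with matches that begin 120 and 112 bases before the start and are separated by 1 base. The GDF3 window holds the SOX core alone, 191 bases before the start, and the DPPA3 window holds the octamer core alone, 161 bases before it. APOBEC1, a dim gene here, holds the octamer core at 194 and 164 bases. No match lies in the windows of SLC2A14, FOXJ2, C3AR1 and CLEC4E. Of 35116 promoter windows of this length, 3.94% hold the octamer core, 9.29% the SOX core and 0.541% both. A match describes letters in the window and does not show that a factor binds there.

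NANOG was read from the mean of the 2 probesets annotated to NANOG alone (3403437 and 3403444), since 22 further probesets are also annotated to one of its copies, NANOGP8 or NANOGP1. In ES lines its level was lowest at 8.58 (Shef 6), had a median of 9.81 and was highest at 10.66 (Shef3). On plastic it was 12.35 in NCCIT, 12.004 in 833KE, 11.12 in TERA1, 11.09 in NTERA2 and 10.89 in 2102Ep. Every EC line on plastic thus stood above every ES line, by a margin of 0.24, and NCCIT and 833KE stood apart above the other 3. On the 2 probesets singly the margins were 0.0082 and 0.013. TERA1 was 12.48 on 3403437, near 833KE at 12.62, but the lowest EC line on plastic at 9.76 on 3403444. On feeders it was 11.95 in 833KE, 10.68 in NTERA2 and 10.07 in 2102Ep. On feeders 2102Ep lay inside the ES range and NTERA2 just above its top. The group means were 9.75 ± 0.77 (SD, n = 6) in ES lines, 11.49 ± 0.64 (SD, n = 5) on plastic and 10.90 ± 0.96 (SD, n = 3) on feeders, a difference from ES lines of 1.74 (3.34-fold) on plastic and 1.15 on feeders.

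The 22 probesets shared with copies gave a different order of the EC lines. Of these probesets, 19 were higher without overlap in EC lines on plastic and 19 on feeders, with median differences of 1.87 and 1.48. Averaged over the 22, NCCIT was the lowest EC line on plastic at 10.52, and TERA1 (11.49) and 2102Ep (11.44) were the highest. The highest line on the NANOG probesets was thus the lowest on the shared ones. A cluster annotated to NANOG and the pseudogene NANOGP1 was 3.87 in NCCIT, inside the ES range of 3.57 to 4.60. Signal of the copies and of NANOG cannot be told apart on the shared probesets.

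GDF3 signals through activin-type receptors and was read from a cluster of its own. In ES lines its level was lowest at 5.94 (Shef7), had a median of 7.68 and was highest at 9.06 (H14). On plastic the level was 12.22 in TERA1, 11.75 in 833KE and 11.71 in 2102Ep, then 11.03 for NTERA2 and 9.36 for NCCIT. NCCIT exceeded the highest ES line by 0.31, and the other EC lines stood well above. On feeders it was 11.45 in 833KE, 11.16 in NTERA2 and 11.09 in 2102Ep, a tight group 2.03 above the highest ES line. The means were 7.73 ± 1.17 (SD, n = 6) in ES lines, 11.22 ± 1.12 (SD, n = 5) on plastic and 11.23 ± 0.19 (SD, n = 3) on feeders. The difference was 3.49 on plastic (11.2-fold) and 3.50 on feeders. Of the 7 GDF3 probesets, 5 were higher without overlap on plastic and 7 on feeders. The ES lines with earlier codes, H14 and Shef5, were the highest of the ES lines at 9.06 and 8.94, against 5.94 to 7.75 in the later-coded ES lines. Among later-coded arrays the difference was 4.12 on plastic and 4.36 on feeders, the latter from 1 EC array.

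DPPA3 had the largest difference of the 10 genes on plastic. Its cluster and its 8 probesets are all also annotated to a copy of the gene, so DPPA3 and the copy cannot be told apart. The values of the cluster are those of 1 of the 8, probeset 3403415, so the cluster is no separate reading. In ES lines the level was lowest at 3.33 (Shef 6), had a median of 4.45 and was highest at 4.78 (Shef3). On plastic it was 12.15 in 833KE, 11.62 in TERA1, 11.39 in 2102Ep, 10.54 in NCCIT and 6.37 in NTERA2. NTERA2 stood far below the other EC lines but 1.59 above the highest ES line. On feeders it was 10.24 in 833KE, 8.98 in 2102Ep and 4.10 in NTERA2, and the last lay within the ES range. The means were 4.29 ± 0.52 (SD, n = 6), 10.42 ± 2.33 (SD, n = 5) and 7.78 ± 3.24 (SD, n = 3), a difference from ES lines of 6.12 on plastic and 3.48 on feeders. The ES mean is below the dim limit of 4.58, so the true difference may be larger than the one measured and no fold is given. All 8 probesets were higher without overlap on plastic, by 5.67 to 8.14.

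CLEC4D encodes a C-type lectin receptor that myeloid cells use to sense microbes, and it was the fourth gene with no overlap on plastic. In ES lines its level was lowest at 3.38 (H14), had a median of 3.72 and was highest at 3.92 (Shef5), at percentile 16.1 of all clusters. On plastic it was 9.60 in 2102Ep, 8.10 in 833KE, 7.58 in TERA1, 6.91 in NTERA2 and 3.96 in NCCIT. NCCIT exceeded the highest ES line by only 0.034, whereas the other EC lines were well above. On feeders it was 7.45 in 2102Ep, 6.49 in 833KE and 4.52 in NTERA2, all above the ES lines. The means were 3.67 ± 0.24 (SD, n = 6), 7.23 ± 2.08 (SD, n = 5) and 6.15 ± 1.5 (SD, n = 3). Of the 8 CLEC4D probesets, 4 were higher without overlap on plastic and 6 on feeders. CLEC4D passed the filter on dim clusters through its EC arrays. In a list of 10 other C-type lectins of myeloid cells, 8 had a cluster of their own, all 8 were dim and none passed limma's adjusted p of 0.05 in either comparison with ES lines. Of these, 4 had an unadjusted p under 0.05 in each comparison, where 19.2% of all clusters on plastic and 17.6% on feeders did. Of the 9 myeloid markers with a cluster of their own, limma called none in either comparison and none had an unadjusted p under 0.05.

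CLEC6A, a lectin receptor for fungal sugars, is the measured gene nearest to CLEC4D on the side of NANOG in RefSeq order and has no cluster of its own. It was read from its 2 probesets, a reading chosen after the values of the other lectins were seen. In ES lines its level was lowest at 3.36 (Shef3), had a median of 3.83 and was highest at 4.26 (H9). On plastic 2102Ep reached 11.05, 833KE 8.85, TERA1 8.57, NTERA2 7.70 and NCCIT 4.52. The 5 EC lines stood above all ES lines and in the same order as for CLEC4D, with NCCIT only 0.26 above. On feeders the level was 7.61 for 833KE, 7.51 for 2102Ep and 5.04 for NTERA2, each lower than in the same line on plastic. Both probesets rose by limma on plastic (adjusted p of 0.00498 and 0.0375) and on feeders (0.0120 and 0.0440). Between feeders and plastic both had an unadjusted p under 0.05, and neither passed (adjusted p = 0.354 in limma).

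The transporter genes SLC2A14 and SLC2A3, which encode the glucose transporters GLUT14 and GLUT3, are near-identical copies. They were read from 12 and 10 probesets of their own, and 12 more carry both names. The ES means of the 12 SLC2A14 probesets ran from 2.74 to 13.30, so their average blends dim and bright ones. Whether signal of SLC2A3 enters the SLC2A14 probesets was not tested. Averaged, SLC2A14 lay at 8.08 to 8.86 in ES lines (mean 8.32 ± 0.29, SD, n = 6), at 8.79 to 9.36 on plastic (9.18 ± 0.23, SD, n = 5) and at 9.06 to 9.86 on feeders (9.57 ± 0.44, SD, n = 3). On plastic NCCIT lay inside the ES range, and on feeders no line did. The larger differences came from probesets that were dim in ES lines. Probeset 3442831 had a mean of 2.74 ± 0.78 (SD, n = 6) in ES lines, 6.03 ± 0.97 (SD, n = 5) on plastic and 6.70 ± 0.87 (SD, n = 3) on feeders. Probeset 3442821 went from 3.67 ± 1.36 (SD, n = 6) in ES lines to 6.17 ± 0.84 (SD, n = 5) on plastic. The brightest one, 3442814, was 13.30 in ES lines and 13.41 on plastic, and the median difference over the 12 was 0.38. SLC2A3 lay at 10.61 to 10.95 in ES lines, with means of 10.78 ± 0.14 (SD, n = 6), 11.02 ± 0.41 (SD, n = 5) and 11.09 ± 0.17 (SD, n = 3), and overlapped in both comparisons. Of 11 other glucose transporter genes, 9 had a cluster of their own and none was called by limma. Of the 9, 2 on plastic and 1 on feeders had an unadjusted p under 0.05, where 19.2% and 17.6% of all clusters did.

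**Figure D2:**
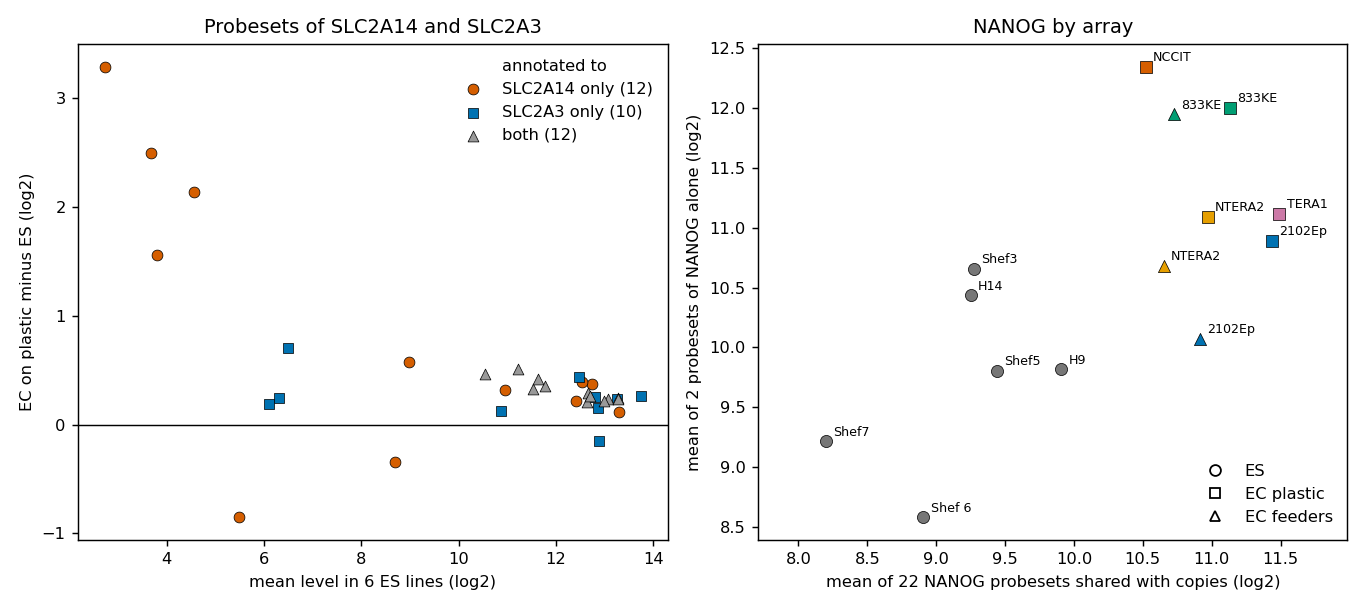
Left, difference between EC lines on plastic and ES lines (log2, vertical) against the mean level in 6 ES lines (log2, horizontal) for each probeset of SLC2A14 and SLC2A3; the SLC2A14 probesets with the largest differences, up to 3.29, have ES means under 5. Right, NANOG by array, from the 2 probesets of NANOG alone (log2, vertical) and the 22 shared with copies (log2, horizontal); NCCIT is the highest EC array on the vertical axis at 12.35 and the lowest on the horizontal at 10.52.

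FOXJ2, a forkhead transcription factor, varied widely among EC lines. In ES lines its level was lowest at 6.18, had a median of 6.40 and was highest at 6.77. On plastic NTERA2 (8.83) and 2102Ep (7.93) were highest, TERA1 (6.96) was next, and NCCIT (6.64) and 833KE (6.53) were lowest. On feeders it was 8.58 in NTERA2, 8.42 in 2102Ep and 6.91 in 833KE. NTERA2 and 2102Ep were thus high in both conditions, and NCCIT and 833KE on plastic lay within the ES range, while all EC lines on feeders lay above it. APOBEC1, which edits cytidines in RNA, had means of 3.13 ± 0.28 (SD, n = 6) in ES lines, 3.14 ± 0.28 (SD, n = 5) on plastic and 3.27 ± 0.37 (SD, n = 3) on feeders. C3AR1, the receptor of the complement fragment C3a, had means of 2.97, 2.88 and 3.07, and CLEC4E, a lectin receptor next to CLEC4D, had 2.40, 2.34 and 2.33. These 3 genes were at percentiles 11.7, 10.2 and 5.75 of all clusters, and the levels of each overlapped between EC and ES lines.

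How many genes of the list stood above all ES lines varied with the EC line. On plastic NCCIT had 4 of 10 such genes, 833KE 5, NTERA2 7, and 2102Ep and TERA1 8 each. On feeders these were 8 in 833KE, 7 in 2102Ep and 5 in NTERA2. The counts take in dim genes: CLEC4E in TERA1 and APOBEC1 in 2102Ep on plastic, and C3AR1 in 833KE and APOBEC1 in 2102Ep on feeders. Between 19.2% and 27.9% of all clusters stood above all ES lines in a single EC array. Read from its 2 own probesets, NANOG did not follow GDF3 from line to line. After the group means were subtracted, the correlation over the 14 arrays was 0.024 between NANOG and GDF3, 0.34 between NANOG and DPPA3, 0.18 between GDF3 and DPPA3, 0.48 between GDF3 and CLEC4D, and 0.68 between GDF3 and SLC2A14. It was negative between NANOG and FOXJ2 (-0.48), SLC2A3 (-0.40) and CLEC4D (-0.33), and between GDF3 and APOBEC1 (-0.36). For the 22 shared NANOG probesets the correlation was 0.63 with GDF3 and 0.033 with the 2 probesets of NANOG alone. Whether NANOG followed GDF3 thus depended on the probesets read. These correlations share arrays and normalisation and are descriptions only. The clusters most like NANOG by this measure were CDKN2AIP (0.85), TM2D3 (0.83), PART1 (0.83), HEXA (0.82) and RSL24D1 (0.82), none on 12p. Those most like GDF3 were COMMD4 (0.94), LY6E (0.91), CD9 (0.90), COX6C (0.88) and VAMP8 (0.88), of which CD9 lies on 12p.

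Growth on feeders in ES medium was compared with growth on plastic in the same 3 EC lines. The choice of genes rested on EC against ES cells, which uses these same EC arrays, so this contrast is not independent of it. DPPA3 and CLEC4D were lower on feeders in every line, as were 18.1% of all clusters. DPPA3 was lower by 2.41 in 2102Ep (11.39 on plastic, 8.98 on feeders), by 1.91 in 833KE (12.15 and 10.24) and by 2.27 in NTERA2 (6.37 and 4.10). CLEC4D was lower by 2.15 in 2102Ep (9.60 and 7.45), by 1.62 in 833KE (8.10 and 6.49) and by 2.40 in NTERA2 (6.91 and 4.52). Among all clusters, 0.0954% were lower by at least 1.5 in each of the 3 lines. In limma with the line as a block, the DPPA3 difference was -2.20 (SE 0.18, adjusted p = 0.120), the 7th smallest p of 22011 clusters, and that of CLEC4D was -2.05 (SE 0.21, adjusted p = 0.169), the 16th. The DPPA3 cluster holds the values of probeset 3403415 alone, which had the smallest p of the 8 DPPA3 probesets in this contrast. The SD of its change over the 3 lines was 0.26, against 0.57 to 3.46 for the other probesets. Neither passed the threshold, as limma called 0.0% of clusters in either direction, while 14.9% had an unadjusted p under 0.05. With dim clusters left out DPPA3 passed (adjusted p = 0.0384 in limma) and CLEC4D did not (adjusted p = 0.0638). Both genes stayed in this fit through their EC arrays, since their ES means of 4.29 and 3.67 lay below the dim limit. Over the alternatives run, the adjusted p of DPPA3 ranged from 0.0384 to 0.798 and that of CLEC4D from 0.0638 to 0.785. The differences ranged from -2.64 to -1.91 for DPPA3 and from -2.27 to -1.08 for CLEC4D, whose smallest value came from 3 feeder against all 5 plastic arrays without the block. The feeder arrays of NTERA2 and 2102Ep carry earlier codes and those on plastic later ones; only 833KE has later codes in both, and its values were lower by 1.91 and 1.62. The mean level of the 12 fibroblast markers was higher on feeders, by 0.25 in 2102Ep, 0.22 in 833KE and 0.29 in NTERA2, although all cells had been sorted for SSEA3. That of the 12 pluripotent cell markers differed by -0.25 in 2102Ep, -0.32 in 833KE and -0.15 in NTERA2. The part of either shift in the differences of DPPA3 and CLEC4D was not tested.

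At probeset level 7 of 8 DPPA3 probesets and 8 of 8 CLEC4D probesets had an unadjusted p under 0.05 (12.7% of all probesets did), and none passed after adjustment. These probesets share their target and are no replicates. On 7 of the 8 DPPA3 probesets the level was lower on feeders in each of the 3 lines. On 3403420 it was 10.75 on plastic and 10.90 on feeders in 833KE. GDF3 differed by -0.27 (SE 0.21, adjusted p = 0.588 in limma), with -0.63 in 2102Ep, -0.30 in 833KE and 0.13 in NTERA2. NANOG differed by -0.82 in 2102Ep, -0.41 in NTERA2 and -0.06 in 833KE. The remaining genes differed by 0.02 to 0.29 on average, and the limma fit called none of those it covered.

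**Figure D3:**
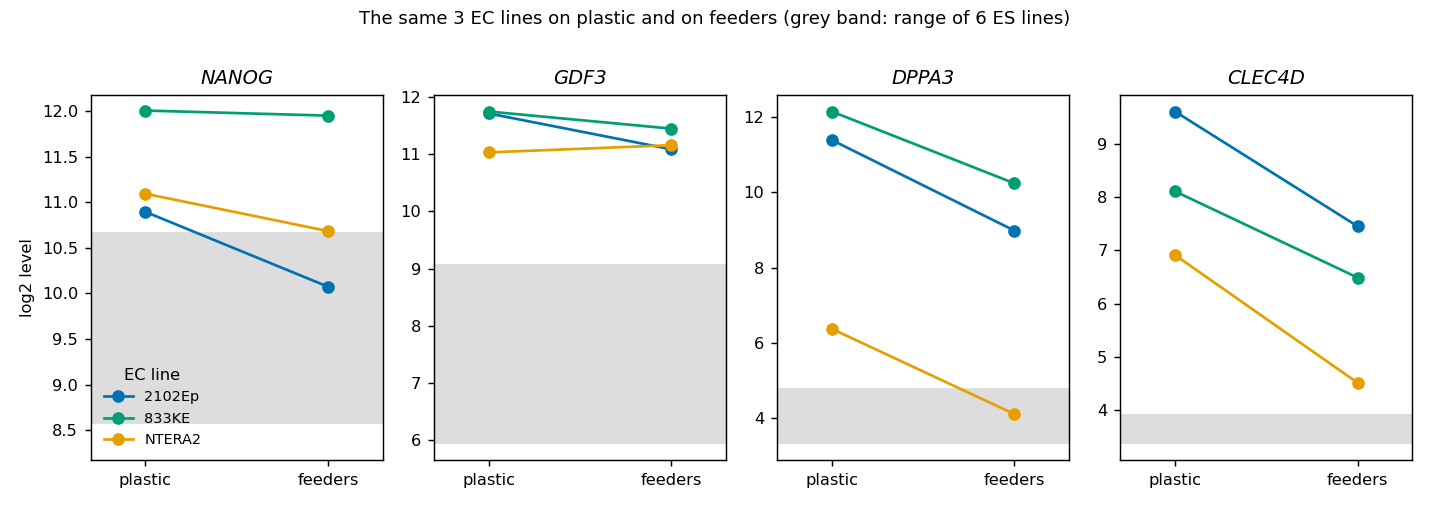
Log2 level (vertical, a separate range for each gene) of NANOG, GDF3, DPPA3 and CLEC4D in the same 3 EC lines on plastic and on feeders. Each line joins the 2 arrays of an EC line and the grey band is the range of 6 ES lines; DPPA3 and CLEC4D are lower on feeders in all 3 lines, by 1.91 to 2.41 and by 1.62 to 2.40.

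Measured genes around the list, chosen by position alone, were then tested to see whether they were higher along with it. RefSeq places 45 genes from APOBEC1 to CLEC4E, of which 4 off the list were measured by a cluster of their own (CLEC4C, NANOGNB, NECAP1 and CLEC4A), and the nearest 10 such genes on each side were added, 24 in all. On plastic, 6 of the 24 rose against ES lines by limma and none fell, where 3.26% of all clusters rose and 1.34% fell. These were NECAP1, a clathrin adaptor factor (1.87, SE 0.17, adjusted p = 0.000394), EMG1, a ribosome biogenesis factor (1.66), PEX5, the peroxisomal import receptor (1.46), M6PR, a mannose 6-phosphate receptor (1.44), A2ML1, a protease inhibitor (1.38), and LPCAT3, a phospholipid acyltransferase (1.24). NECAP1 lay between 6.76 and 7.47 in ES lines and at 8.72 in NCCIT, 9.11 in 2102Ep, 8.96 in 833KE, 9.48 in TERA1 and 9.11 in NTERA2, with no overlap. On feeders, 5 of the 24 rose (EMG1, NECAP1, PEX5, M6PR and LPCAT3), and none fell, where 1.56% of clusters rose and 0.731% fell. LPCAT3 lost its call in 5 of the alternatives run on feeders, and NECAP1 among later-coded arrays (adjusted p = 0.0501).

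The median difference of the 24 neighbours was 0.59 on plastic and 0.61 on feeders, against 0.88 and 1.20 for the 10 genes and 0.0046 and 0.042 for all clusters. Those closest to NANOG that did not pass were NANOGNB (0.75, adjusted p = 0.283 in limma), CLEC4C (0.60, adjusted p = 0.0797) and CLEC4A (0.27, adjusted p = 0.225), all on plastic. Each of these was dim, with means over all arrays of 2.64, 4.51 and 3.21, so low signal may hide a difference. The median of the 24 takes in these and other dim genes, such as CD163 and PZP. Another 5 genes between APOBEC1 and CLEC4E could be read from probesets: limma called 2 of 2 probesets of CLEC6A higher in each comparison with ES lines, 1 of 11 of FAM90A1 on plastic and 3 on feeders, and none of NANOGP1, POU5F1P3 and ZNF705A. Over the whole arm, of 217 genes on 12p with a cluster of their own (listed genes included), 84 rose and none fell on plastic, with a median difference of 0.79, and 69 rose and 1 fell on feeders, with a median of 0.84. By array, the neighbours' median over the ES mean was 0.14 in NCCIT, 0.63 in 2102Ep, 0.67 in 833KE, 0.59 in TERA1 and 0.76 in NTERA2 on plastic. The values on feeders were 0.96 in 2102Ep, 0.47 in 833KE and 0.19 in NTERA2, so the order of the lines differed between the conditions and NTERA2 went from the highest to the lowest. The part of copy number in these differences was not tested. NCCIT, with the lowest median on plastic, was also the line with the fewest list genes above all ES lines. Between feeders and plastic, limma called none of the 24, and 1 had an unadjusted p under 0.05, where 14.9% of all clusters did.

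**Figure D4:**
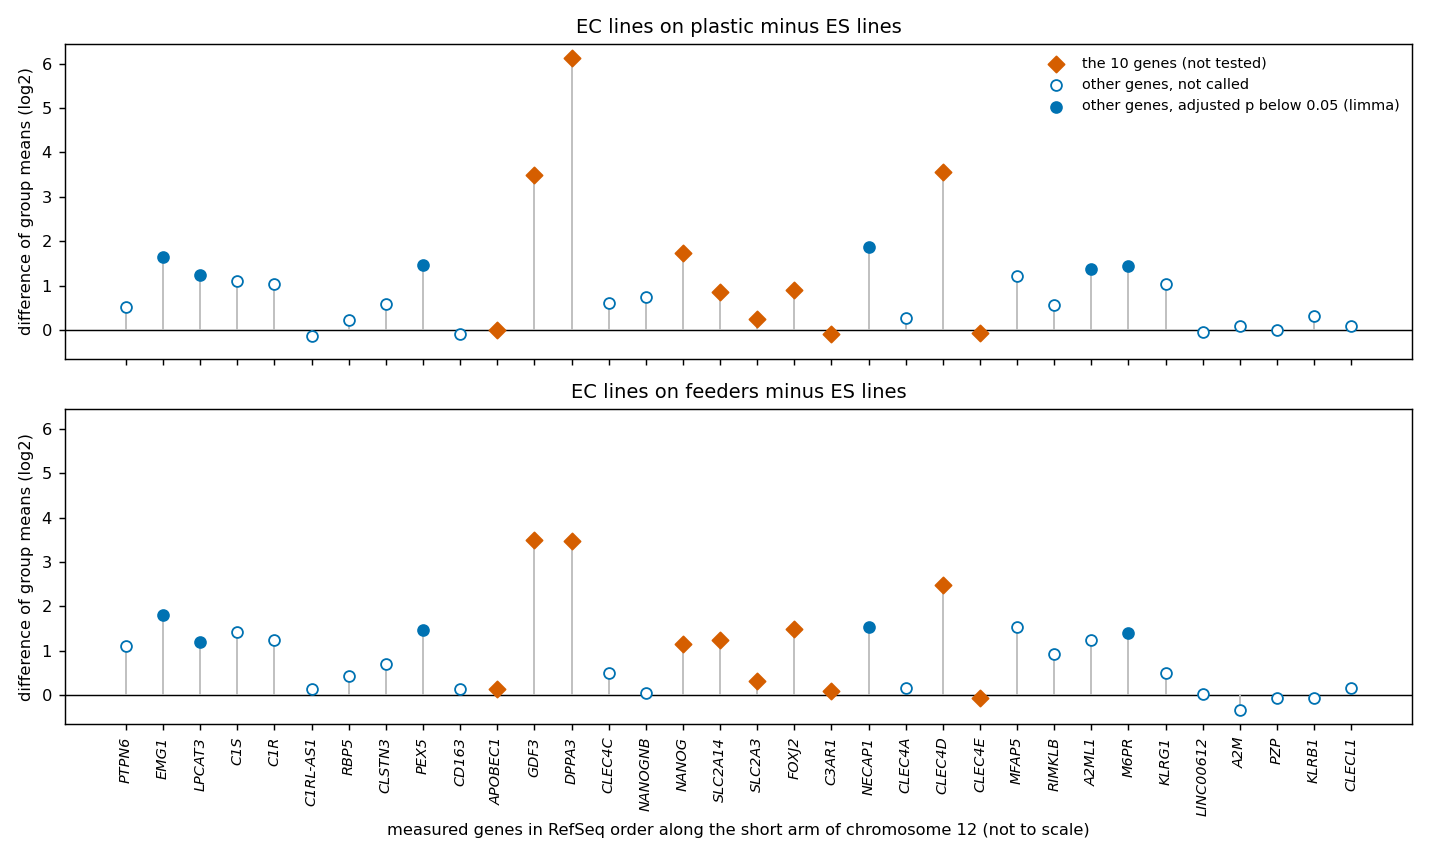
Difference of group means (log2, vertical, the same range in both panels) for the 10 genes (diamonds) and 24 neighbours (circles) in RefSeq order along 12p, for EC lines on plastic (top) and on feeders (bottom) against ES lines. Filled circles passed limma's adjusted p of 0.05, 6 on plastic and 5 on feeders; DPPA3 has the tallest bar on plastic at 6.12.

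Among genes of the GDF3 pathway, CER1 and FST were lower in EC lines. The list of these genes was chosen with earlier results of these data known, so its limma values are given as a description. Of 17 listed ligands, receptors, SMAD factors and inhibitors, 9 had a cluster of their own, of which none rose and 2 fell in both comparisons by limma. Of all clusters, 1.34% fell on plastic and 0.731% on feeders. An unadjusted p under 0.05 was found for 3 of the 9 on plastic and 4 on feeders, against 19.2% and 17.6% of all clusters. CER1, an antagonist of NODAL and BMP ligands, fell by 5.31 on plastic (10.12 ± 0.55, SD, n = 6 in ES lines and 4.82 ± 0.52, SD, n = 5) and by 2.68 on feeders (adjusted p = 0.0327). FST, which binds activin, fell by 2.77 on plastic (adjusted p = 0.00223) and by 2.21 on feeders (adjusted p = 0.0194). On feeders these calls were lost in 5 and 3 of 9 leave-one-out fits. NODAL had a mean of 7.67 ± 1.33 (SD, n = 6) in ES lines, 6.22 ± 2.30 (SD, n = 5) on plastic and 8.71 ± 0.48 (SD, n = 3) on feeders, and neither difference passed. TDGF1, a co-receptor of NODAL, had no such cluster and was read from 2 probesets, with means of 10.67 ± 0.52 (SD, n = 6) in ES lines, 11.52 ± 0.39 (SD, n = 5) on plastic and 11.53 ± 0.21 (SD, n = 3) on feeders. LEFTY1, LEFTY2 and FOXH1, also read from probesets, lay lower than in ES lines by 0.52 to 0.96 on plastic and higher by 0.16 to 0.60 on feeders. Of the 30 probesets of these 4 genes limma called none in either comparison, where 2.07% of all probesets rose and 0.745% fell on plastic and 0.61% rose and 0.344% fell on feeders.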

How the data were processed

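RNA of 14 arrays (6 of ES lines, 5 of EC lines on plastic and 3 of EC lines on feeders) was used at 22011 gene-level clusters and 287329 exon-level probesets. The values are log2 levels deposited by the authors; the submitters' processing notes list limma, RMA and Affymetrix Expression Console with no version. The genome build was not given in the sources used here. Groups come from the labels. Gene names come from GEO's platform annotation: 14432 clusters have 1 symbol, 2408 several and 5171 none, and no gene is named from a cluster with several, except DPPA3, which has no other.

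Differences are of group means, tested with limma 3.58.1 in R 4.3.3 (Benjamini-Hochberg over the whole table, threshold 0.05) after a check on simulated data. ES comparisons used no block. Feeders against plastic used the line as a block, since both cultures are of the same line: same-line arrays correlated at 0.41, 0.34 and 0.51 after group means were removed, other pairs at -0.33 to -0.02. Genes named are the 10 listed, neighbours called or nearest NANOG, the 5 clusters most like NANOG or GDF3, and called genes of the lists. The members and lists were chosen with earlier results of these data known. Alternatives were quantile normalisation, median centring, leaving out dim features or each line, exchanging cluster and probeset summaries, array codes and blocks. Genes without a cluster of their own, CLEC6A among them, were read from probesets as an addition after seeing the data. The number of arrays limits the precision.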

Additional observations from a re-analysis of the deposited data

Results flagged for a closer look

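DPPA3 in NTERA2 on plastic, at 6.37, lay 4.17 below the next EC line, a gap that is 0.721 of the range of the 5 EC lines and above the critical value of Dixon's test. It was the only 1 of 20 groups of 5 or 6 arrays that stood out in this way, and chance alone gives about 1 in 20. NTERA2 was also the lowest EC line for DPPA3 on feeders, at 4.10.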

How the results depend on the processing

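The number of neighbours called higher on plastic was 10 with only the 3 EC lines also grown on feeders, and 6 to 10 when each line was left out, with 10 without NCCIT. On feeders it was 4 to 8, with 8 without NTERA2. Between feeders and plastic, 1 listed gene was called lower with dim features left out (DPPA3, which passed the filter through its EC arrays). Among later-coded arrays 1 EC feeder array remained, so no count of listed genes without overlap is given for feeders there. In a single EC array, between 19.2% and 27.9% of all clusters stood above all ES lines. Without the replicate block, the DPPA3 difference between feeders and plastic was -2.20 (adjusted p = 0.798) and that of CLEC4D -2.05 (adjusted p = 0.626); the block changed no call. With line and code both as blocks, an alternative chosen after seeing the data, the values were -1.91 (adjusted p = 0.313) and -1.62 (adjusted p = 0.316).

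Of 348 alternative values of the listed genes' differences from ES lines, 11 moved by more than 1 SD, 5 of them when cluster and probeset summaries were exchanged and 5 among later-coded arrays. On feeders the DPPA3 difference was 5.32 without NTERA2 and 6.04 among later-coded arrays, and that of NANOG was 2.38 among the latter. The fit over all 14 arrays with the line as a block was not run for feeders against plastic, since lines with 1 array add nothing. The causes were not tested. The low signal of APOBEC1, C3AR1 and CLEC4E would hide a lower level, and 3 lines grown both ways limit the feeder contrast.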
